A study of Homo sapiens with 12 samples.

Results

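The transcripts of 9 genes that store, take up, export or sense iron were followed in hTERT-RPE1, a line of human retinal pigment epithelium kept dividing by telomerase. They were chosen by gene symbol: FTL, FTH1, TFRC, STEAP3, SLC11A2, SLC40A1, IREB2, ACO1 and FBXL5. Each symbol had 1 of the 53361 rows of the gene table, and 9 of 9 passed the filter on low values, which left 30712 rows. RNA sequencing gave 3 libraries in each of 4 groups of the same line: untreated cells (control), reversine at 0.5 µM for 24 h with harvest 48 h after washing, bafilomycin A1 (BafA1) at 0.1 µM for 6 h, and MG132 at 1 µM for 24 h. Reversine inhibits the mitotic kinase Mps1, BafA1 the lysosomal proton pump and MG132 the proteasome. The labels give no vehicle for the controls, the treatments differ in length, and nothing says that the 3 libraries of a group are separate cultures, so p-values measure the spread between these libraries, which may be technical. In bulk RNA fewer expressing cells and less RNA per cell cannot be told apart.

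Cells bring in iron by endocytosis of transferrin bound to its receptor (TFRC). In the acidified endosome a reductase (STEAP3) reduces the released iron, and a transporter (SLC11A2, also called DMT1) carries it to the cytosol. Surplus iron is held in a shell of ferritin heavy chains (FTH1, which oxidise iron) and light chains (FTL, which help to form the mineral), or leaves through ferroportin (SLC40A1). The RNA-binding proteins IRP1 (made from ACO1, and an aconitase when it holds an iron-sulphur cluster) and IRP2 (made from IREB2) bind iron-responsive elements when iron is low. Binding in a 5′ UTR blocks translation, and binding in the TFRC 3′ UTR protects the message from decay. FBXL5, an iron-binding subunit of an SCF ubiquitin ligase, sends IRP2 to the proteasome when iron is high, and lysosomes free the iron of ferritin that autophagy brings to them.

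Iron-responsive elements are hairpins with a loop of 6 bases beginning CAGTG, an unpaired C on the 5′ side, and a stem between. They are shown because they tie the storage, uptake and export messages to the sensors. The letters were read from GENCODE v29 transcripts (GRCh38), 5′ to 3′ as DNA, with the loop in capitals:
FTL 5′ UTR: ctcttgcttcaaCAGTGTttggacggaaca
SLC40A1 5′ UTR: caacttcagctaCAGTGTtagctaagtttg
TFRC 3′ UTR, the first from the 5′ end: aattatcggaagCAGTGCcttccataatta
TFRC 3′ UTR, the second: cattatcgggagCAGTGTcttccataatgt
TFRC 3′ UTR, the third: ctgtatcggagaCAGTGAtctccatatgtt
TFRC 3′ UTR, the fourth: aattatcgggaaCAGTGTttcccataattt
SLC11A2 3′ UTR: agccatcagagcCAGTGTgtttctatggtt
The search asked for the C, the loop letters and 5 of 5 pairs (G with T allowed) in the upper stem. It found 6 sites in 3 members, FTL, SLC40A1 and TFRC, and a match in 291 of 19702 protein-coding genes (1.48%). The TFRC sites are numbered among those found, and an element with other loop letters or fewer pairs would be missed. The SLC11A2 site has 4 of 5 pairs and is shown because the element is known from background. At that looser setting ACO1 and IREB2 also had a match, as had 2202 genes in all (11.2%), so the looser matches are a description of letters only. In the transcripts used the FTL site spans bases 35 to 64, before the coding sequence starts at 208, and the TFRC sites lie between bases 3388 and 3933, after coding ends at 2450. FTH1 was not part of the sequence search.

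The libraries differed in ways the groups do not explain. Over transcripts longer than 500 nt, values fell with GC content, relative to the mean over the 12 libraries, in reversine 1, BafA1 3, MG132 2 and MG132 3 (called falling-GC libraries here). That length limit was set after slopes under several definitions had been seen: of 12 definitions compared, 6 marked these 4 libraries. The definition listed at the outset, over all tested rows with a GC content, marked 9 libraries instead and kept only control 3, MG132 2 and MG132 3. Relative depth, read from the low values, was 0.69 to 1.00. Those values came from rows chosen to differ little between libraries, which itself narrows the range, so it does not measure depth. In control 3, MG132 2 and MG132 3, 9118 to 10150 rows were listed at 0. Of the pigment epithelium markers 8 of 10 averaged at least 1 FPKM, while RPE65 and TTR, defining markers of that tissue, stayed between 0.04 and 0.64 FPKM. As 7 of 8 blood and erythroid markers and 3 of 3 endothelial markers also passed 1 FPKM, that cut does not identify the tissue. CRX, among the 8, was at 6.22, 5.04 and 73.3 FPKM in the controls. The 3 keratins of the line summed to 1297 to 1461 FPKM in control and 474 to 724 FPKM after MG132. Liver markers summed to 8.14 to 10 FPKM in control and 10.3 to 21.9 FPKM after MG132, and the part of these shifts in the results below was not tested.

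After MG132 both ferritin chains and IREB2 were higher than in control, and TFRC and STEAP3 were lower. FTL rose 10.4-fold and STEAP3 fell 6.87-fold in mean FPKM. Of the 9 genes, 3 were higher, 2 were lower and 4 did not pass (limma on log2(FPKM + 1), Benjamini-Hochberg adjusted p under 0.05). Over all tested rows 7.14% were called higher and 7.67% lower. The median log2 difference was 0.34 over the 9 genes and 0.04 over all rows.

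FTL was at 558, 707 and 638 FPKM in the controls and at 4175, 7870 and 7724 FPKM after MG132. Every MG132 library lay far above every control, and MG132 1 was the lowest of the 3. The mean went from 634 ± 74.4 to 6590 ± 2092 FPKM (SD, n = 3 each), a log2 difference of 3.32 ± 0.30 (SE, limma adjusted p = 0.000151). FTL passed in 18 of 18 alternatives, with log2 differences of 2.72 to 3.62. The lowest came from leaving out the 4 falling-GC libraries, which leaves MG132 1 alone in its group with the spread taken from the other groups.

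FTH1 was at 3812, 3215 and 4356 FPKM in the controls and at 7434, 5608 and 5985 FPKM after MG132. The groups did not overlap, and here MG132 1 was the highest. FTH1 rose from 3794 ± 570.4 to 6342 ± 964 FPKM (SD, n = 3 each), a log2 difference of 0.74 ± 0.16 (SE, limma adjusted p = 0.0151). The call held in 12 of 18 alternatives. It was lost without control 1 (adjusted p = 0.0525) and without control 2 (0.0616), and with MG132 and control fitted alone (0.21). The difference was 0.36 under the GC content and length correction (0.316), 0.41 with control 3, MG132 2 and MG132 3 alone (0.116) and 0.45 under median-ratio scaling (0.176).

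The ratio of light to heavy chain was taken within each library. FTL stood at 0.146, 0.22 and 0.147 of the FTH1 level, per length, in the controls and at 0.562, 1.4 and 1.29 after MG132. FTL exceeded FTH1 in MG132 2 and MG132 3, which are falling-GC libraries, and in no other library. The log2 ratio went from -2.57 ± 0.34 to 0.01 ± 0.73 (SD, n = 3 each), a difference of 2.58 (exact two-sided permutation p = 0.1, adjusted over 3 comparisons 0.3). With 3 libraries against 3, 0.1 is the smallest p this test can give. The other falling-GC libraries also held the highest ratio of their groups. Reversine 1 was at 0.429 against 0.223 and 0.204, and BafA1 3 at 0.374 against 0.184 and 0.182. The part of the GC trend in these ratios was not tested. Reads of processed ferritin pseudogenes could be divided among copies: 15 FTL and 25 FTH1 pseudogene rows held at most 1.81% and 0.667% of the summed levels.

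**Figure D1:**
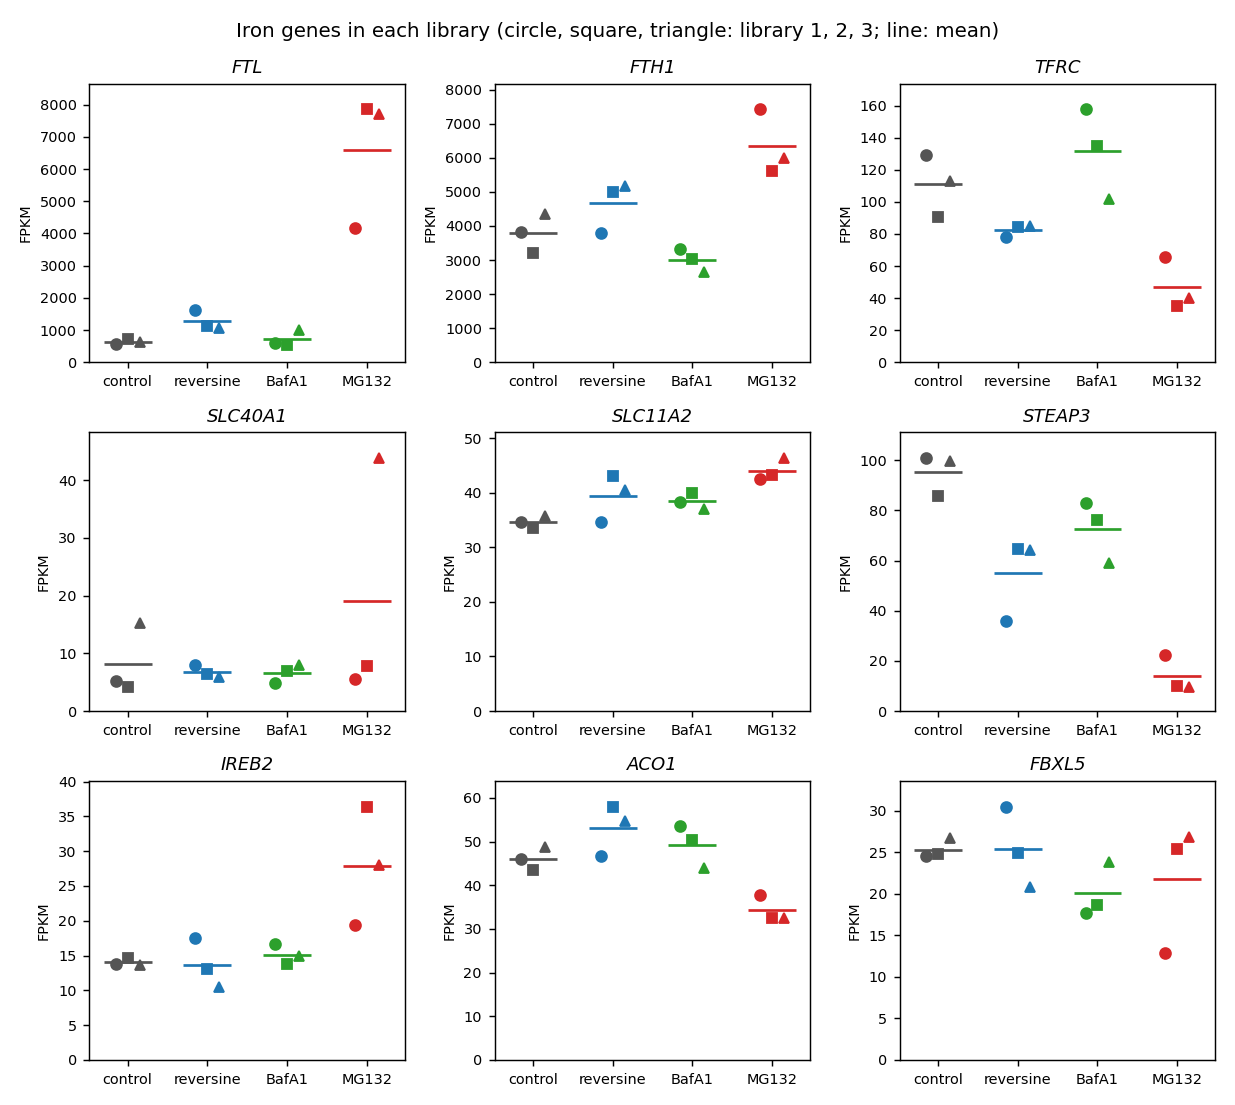
FPKM (vertical axis, linear from 0) of the 9 genes in each library of control, reversine, BafA1 and MG132, with a line at the group mean. FTL reaches 4175 to 7870 FPKM after MG132 against 558 to 707 FPKM in control, while STEAP3 stays at or under 22.2 FPKM after MG132.

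Among the uptake genes, TFRC was at 129.5, 90.8 and 113 FPKM in the controls and at 65.6, 35.2 and 40.1 FPKM after MG132. The groups did not overlap, and MG132 2 and MG132 3 were the lowest of all 12 libraries. TFRC fell from 111 ± 19.4 to 47 ± 16.3 FPKM (SD, n = 3 each), a log2 difference of -1.26 ± 0.25 (SE, limma adjusted p = 0.00883). The call held in 14 of 17 alternatives. With the 4 falling-GC libraries left out the difference was -0.74 (adjusted p = 0.139), and with MG132 and control fitted alone the adjusted p was 0.0569.

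STEAP3, the endosomal ferrireductase, was at 101, 85.8 and 99.6 FPKM in the controls and at 22.2, 10 and 9.45 FPKM after MG132. All 3 MG132 libraries lay below every other library of the study. STEAP3 fell from 95.4 ± 8.3 to 13.9 ± 7.18 FPKM (SD, n = 3 each), a log2 difference of -2.79 ± 0.33 (SE, limma adjusted p = 0.000703). It passed in 17 of 17 alternatives, with differences of -3.23 to -2.05.

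SLC11A2, the endosomal iron transporter, was at 34.6, 33.5 and 35.8 FPKM in the controls and at 42.5, 43.3 and 46.4 FPKM after MG132. The groups did not overlap, yet the difference of 0.34 on the log2 scale (95% interval 0.08 to 0.60) did not pass (limma adjusted p = 0.0766). It passed in 3 of 17 alternatives, among them the fit without MG132 1 (0.0402).

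SLC40A1, the exporter, was at 5.18, 4.17 and 15.3 FPKM in the controls and at 5.47, 7.82 and 43.9 FPKM after MG132. Control 3 and MG132 3 stood apart from their groups, and the groups overlapped. The log2 difference was 0.77 with a 95% interval of -0.80 to 2.33 (limma adjusted p = 0.406), so neither a rise nor a fall of the exporter was resolved.

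Of the sensors, IREB2 was at 13.8, 14.7 and 13.6 FPKM in the controls and at 19.4, 36.4 and 28 FPKM after MG132. The groups did not overlap. IREB2 rose by 0.90 ± 0.25 on the log2 scale (SE, n = 3 each, limma adjusted p = 0.0412), but the call held in only 6 of 17 alternatives. It was lost without control 1 (adjusted p = 0.109), control 2 (0.0824), control 3 (0.0822), MG132 2 (0.169) or MG132 3 (0.137), and with the 4 falling-GC libraries left out the difference was 0.44 (0.394).

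ACO1, which encodes IRP1, was at 45.9, 43.5 and 48.7 FPKM in the controls and at 37.8, 32.6 and 32.4 FPKM after MG132. The groups did not overlap, and the log2 difference of -0.42 (95% interval -0.72 to -0.12) did not pass (limma adjusted p = 0.0668). ACO1 passed in 7 of 17 alternatives, among them the fit without MG132 1 (0.0182).

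FBXL5 was at 24.5, 24.8 and 26.7 FPKM in the controls and at 12.9, 25.4 and 26.9 FPKM after MG132. MG132 1 alone was low, and the other two lay within or just above the range of the controls. The log2 difference was -0.28 (95% interval -0.90 to 0.34, limma adjusted p = 0.437), and it was 0.04 without MG132 1.

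**Figure D2:**
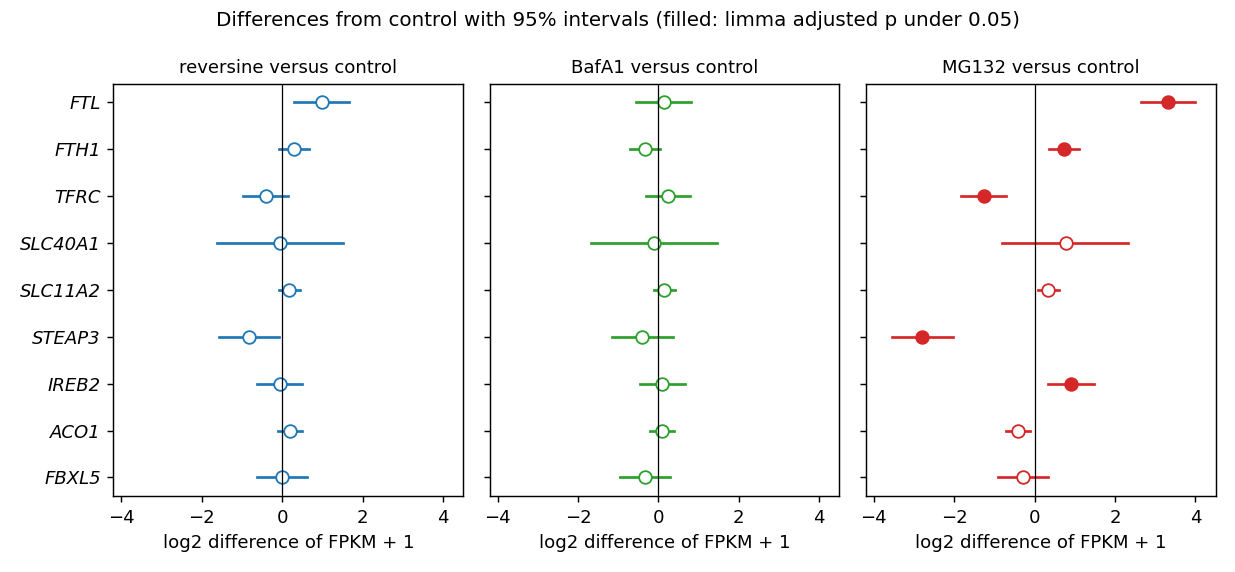
Log2 differences of FPKM + 1 from control with 95% intervals for the 9 genes after reversine, BafA1 and MG132; filled points passed limma's adjusted p under 0.05. Filled points appear in the MG132 panel only: FTL, FTH1 and IREB2 to the right of 0, TFRC and STEAP3 to the left.

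After reversine none of the 9 genes passed (0 called by limma), beside 0.801% of all rows higher and 1.29% lower. At an unadjusted p under 0.05 there were 2, beside 3631 of the 30712 rows. With limma's array weights 4 were called, beside 3306 of those rows. The median log2 difference was -0.01 over the 9 genes and 0.09 over all rows. FTL was at 1631, 1117 and 1054 FPKM, above every control, with a log2 difference of 0.98 (95% interval 0.30 to 1.66, limma adjusted p = 0.187). Reversine 1 was the highest of the 3, and leaving out the falling-GC libraries gave a difference of 0.78 (adjusted p = 0.0422).

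STEAP3 was at 35.9, 64.8 and 64.3 FPKM after reversine, below every control, with a log2 difference of -0.83 (95% interval -1.58 to -0.08, limma adjusted p = 0.353). TFRC was at 77.9, 84.4 and 84.9 FPKM, also below every control, with a log2 difference of -0.41 (95% interval -0.97 to 0.14). FTH1, at 3804, 5008 and 5181 FPKM, overlapped the controls. For the other 5 genes the log2 differences lay between -0.06 (IREB2) and 0.20 (ACO1).

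After BafA1 none of the 9 genes passed either (0 called by limma), beside 0.202% of all rows higher and 0.0619% lower. At an unadjusted p under 0.05 there were 0, beside 2187 of the 30712 rows. With limma's array weights 0 were called, beside 1518 of those rows. The median log2 difference was 0.09 over the 9 genes and 0.14 over all rows. FTH1 was at 3310, 3021 and 2653 FPKM and overlapped the controls, with a log2 difference of -0.34 (95% interval -0.70 to 0.03). TFRC was at 158, 135 and 102 FPKM and overlapped them too, with a difference of 0.24 (95% interval -0.32 to 0.79). FTL was at 608, 549 and 994 FPKM, with BafA1 3 alone above the controls. STEAP3, at 83, 76.3 and 59 FPKM, lay below every control, with a difference of -0.40 (95% interval -1.15 to 0.36). FBXL5 also lay below every control, with a difference of -0.33 (95% interval -0.95 to 0.28). SLC11A2 lay above every control, with a difference of 0.15 (95% interval -0.11 to 0.41). The exposure was shorter than for the other agents.

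The storage and uptake messages were also set against each other within each library, which cancels a factor common to all rows of a library. It does not cancel trends with GC content or length. FTH1 has 55.2% GC and a mean transcript length of 771 nt, and TFRC 41.9% and 1449 nt. The ratios were not corrected for this. FTH1 exceeded TFRC 29.4-, 35.4- and 38.5-fold per length in the controls, 48.8-, 59.3- and 61-fold after reversine, 20.9-, 22.4- and 26-fold after BafA1, and 113-, 159- and 149-fold after MG132. The 4 groups occupied separate ranges, with BafA1 below control and reversine and MG132 above it. The log2 differences from control were 0.71 after reversine, -0.57 after BafA1 and 2.00 after MG132 (exact two-sided permutation p = 0.1 for each, the smallest that 3 against 3 can give, and 0.1 after adjustment). The 3 differences share the same controls. For FTL over FTH1 the differences were 0.68 after reversine (p = 0.2) and 0.47 after BafA1 (p = 0.3) by the same exact test, and these groups overlapped control.

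**Figure D3:**
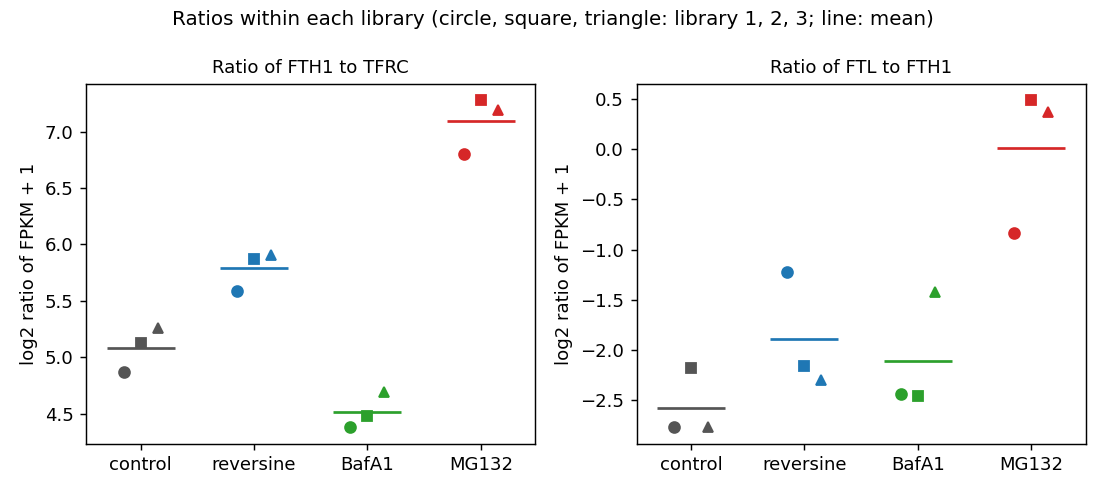
Log2 ratios of FPKM + 1 within each library, FTH1 to TFRC on the left and FTL to FTH1 on the right, with a line at each group mean. The left panel shows 4 separate ranges from 4.38 (BafA1 1) to 7.28 (MG132 2), and the right panel reaches above 0 in MG132 2 and MG132 3 alone.

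Compared with MG132, BafA1 had 5 genes called: FTL and FTH1 lower, TFRC, STEAP3 and ACO1 higher, beside 6.37% of all rows higher and 4.49% lower. The log2 differences were -3.19 for FTL, -1.08 for FTH1, 1.50 for TFRC, 2.40 for STEAP3 and 0.51 for ACO1 (limma adjusted p = 0.000216, 0.0028, 0.00433, 0.00181 and 0.0388). Reversine had 3 called against MG132, FTL lower by 2.35 and STEAP3 and ACO1 higher by 1.96 and 0.62 on the log2 scale (limma adjusted p = 0.0019, 0.00829 and 0.0249), beside 3.52% of rows higher and 2.99% lower. The ACO1 calls were the least steady: 6 of 16 alternatives kept that against BafA1 and 9 of 16 that against reversine, and each was lost without MG132 2 or MG132 3, the first also without BafA1 1 or BafA1 2 and the second without reversine 2 or reversine 3.

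Between reversine and BafA1 none of the 9 genes passed (0 called by limma), beside 0.443% of rows higher and 0.785% lower. At an unadjusted p under 0.05 there were 3, beside 2295 of the 30712 rows. With limma's array weights 3 were called, beside 2903 of those rows. In each case those 3 were FTL and FTH1, higher after reversine, and TFRC, lower. Their log2 differences were 0.84, 0.63 and -0.65 in the main fit, and 0.79, 0.68 and -0.75 with array weights. In the order of group means, the step from reversine up to MG132 passed for FTL (log2 difference 2.35) and the step from reversine down to MG132 passed for STEAP3 (1.96). No other step between neighbouring groups passed for any of the 9 genes. All comparisons with MG132 share its 3 libraries.

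Other genes of iron and haem handling were taken from 8 lists of 85 genes, of which 77 were tested. After MG132, 8 were higher, 10 lower and 59 did not pass, where 7.14% of all rows were higher and 7.67% lower and the all-row median log2 difference was 0.04. HMOX1, the inducible oxygenase that frees iron from haem, was at 28.6, 35.8 and 37.5 FPKM in the controls and at 490.0, 365 and 368 FPKM after MG132. The ranges were far apart, with a log2 difference of 3.54 ± 0.19 (SE, limma adjusted p = 1.07e-05). HMOX2, the constitutive form, averaged 74.7 FPKM in control and fell to 49.8 FPKM (adjusted p = 0.00598).

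Within haem synthesis the first enzyme was called higher and some of the later ones lower. ALAS1, which makes the first intermediate, rose from 23 to 50.7 FPKM (limma adjusted p = 0.00833). ALAD fell from 45.1 to 16.5 FPKM (adjusted p = 0.0172) and CPOX from 47.5 to 15 FPKM (0.000921). The later enzymes UROS, UROD and PPOX did not pass, with log2 differences of -0.14, -0.57 and -0.02. SLC48A1, a haem transporter of endosomes and lysosomes, rose from 16.1 to 34.3 FPKM (0.000744). Of the 17 genes on the haem list, 3 were higher and 4 lower, with a median log2 difference of 0.15 (7.14% higher, 7.67% lower and a median of 0.04 over all rows). The ALAD call was lost without control 1, control 3, MG132 2 or MG132 3 (limma adjusted p = 0.0612 to 0.0771). The ALAS1 call was lost under median-ratio scaling (log2 difference 0.82, limma adjusted p = 0.0688).

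Of 21 tested genes of mitochondrial iron and iron-sulphur cluster assembly, 4 were higher and 2 lower after MG132, with a median log2 difference of -0.50 (7.14% higher, 7.67% lower and a median of 0.04 over all rows). HSPA9, the mitochondrial Hsp70 that serves cluster transfer, rose by 1.11 on the log2 scale, from 308 to 666 FPKM (limma adjusted p = 0.000198). ISCU, the assembly scaffold, rose from 42 to 121 FPKM (0.0344), with MG132 1 at 63.5 and the other two at 152 and 147 FPKM. LYRM4, a partner of the cysteine desulphurase that supplies the sulphur, also rose, by 0.70 on the log2 scale (0.0284). GLRX5, which passes clusters on, fell from 53.6 to 19 FPKM (0.000542), and FDX1, a ferredoxin, from 11.5 to 6.78 FPKM (0.0282). The calls of ISCU, LYRM4 and FDX1 held in 7, 6 and 10 of 17 alternatives. ISCU was lost without any 1 of the 3 controls, MG132 2 or MG132 3 (adjusted p = 0.0693 to 0.139), LYRM4 without control 1, control 3, MG132 2 or MG132 3 (0.0822 to 0.135), and FDX1 without any 1 of the controls or MG132 3 (0.0683 to 0.096). Both scalings also ended the calls of ISCU and LYRM4, with adjusted p of 0.0659 and 0.146 under median-ratio scaling and 0.0883 and 0.0841 under TMM. Leaving out the 4 falling-GC libraries gave 0.59 for ISCU and 0.44 for LYRM4 on the log2 scale (0.143 and 0.447).

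Of 6 tested genes of ferritin turnover and iron chaperones, 0 were higher and 2 lower, with a median log2 difference of -0.14 (7.14% higher, 7.67% lower and a median of 0.04 over all rows). PCBP1, an iron chaperone for ferritin, fell from 544 to 259.8 FPKM (limma adjusted p = 0.0423) and its relative PCBP4 from 129.8 to 35.3 FPKM (0.00435). The PCBP1 call was lost without any 1 of the 3 controls, MG132 2 or MG132 3 (0.0757 to 0.158). NCOA4, the receptor that takes ferritin to lysosomes, was at 19.2 FPKM in control and 24.5 FPKM after MG132 (log2 difference 0.33, adjusted p = 0.332). Of 12 genes of the SCF ligase and cytosolic cluster delivery around FBXL5, NUBP1 and NUBP2, scaffold proteins of cytosolic clusters, fell by 0.87 and 0.96 on the log2 scale (0.00844 and 0.0482), and 0 of the 12 were called higher. The NUBP2 call was lost without any 1 of the 3 controls, MG132 2 or MG132 3 (adjusted p = 0.0822 to 0.179).

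Of 11 tested uptake and trafficking genes only SNX3, a sorting protein for the recycling of the transferrin receptor, passed, rising from 128 to 275 FPKM after MG132 (limma adjusted p = 0.0046). Over all rows 7.14% were called higher and 7.67% lower after MG132. The 4 other transcripts known to carry an iron-responsive element gave 0 calls after MG132. Neither the 2 tested export genes nor the 4 tested prolyl hydroxylase and HIF genes passed in any comparison against control. Of the 18 calls after MG132, 5 passed in every alternative run: HMOX1, HSPA9, GLRX5, PCBP4 and SNX3.

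After reversine 3 of the 77 other genes passed, 2 higher and 1 lower, beside 0.801% of all rows higher and 1.29% lower. HMOX1 was at 73.3, 105 and 98.2 FPKM, above every control, and rose by 1.41 on the log2 scale (limma adjusted p = 0.00503). FDXR, the ferredoxin reductase, rose from 24.5 to 74.6 FPKM (0.0478). The HMOX1 call was lost when only reversine and control were fitted (0.126), and that of FDXR was lost without any 1 of the 3 controls and without reversine 2 or reversine 3.

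After BafA1 none of the 77 passed (0 called by limma), beside 0.202% of all rows higher and 0.0619% lower. At an unadjusted p under 0.05 there were 11, beside 2187 of the 30712 rows. HMOX1 was at 16, 13.1 and 15.7 FPKM, below every control, with a log2 difference of -1.13 (95% interval -1.55 to -0.71, limma adjusted p = 0.0557). FDX1L and EGLN2 were not analysed here.

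**Figure D4:**
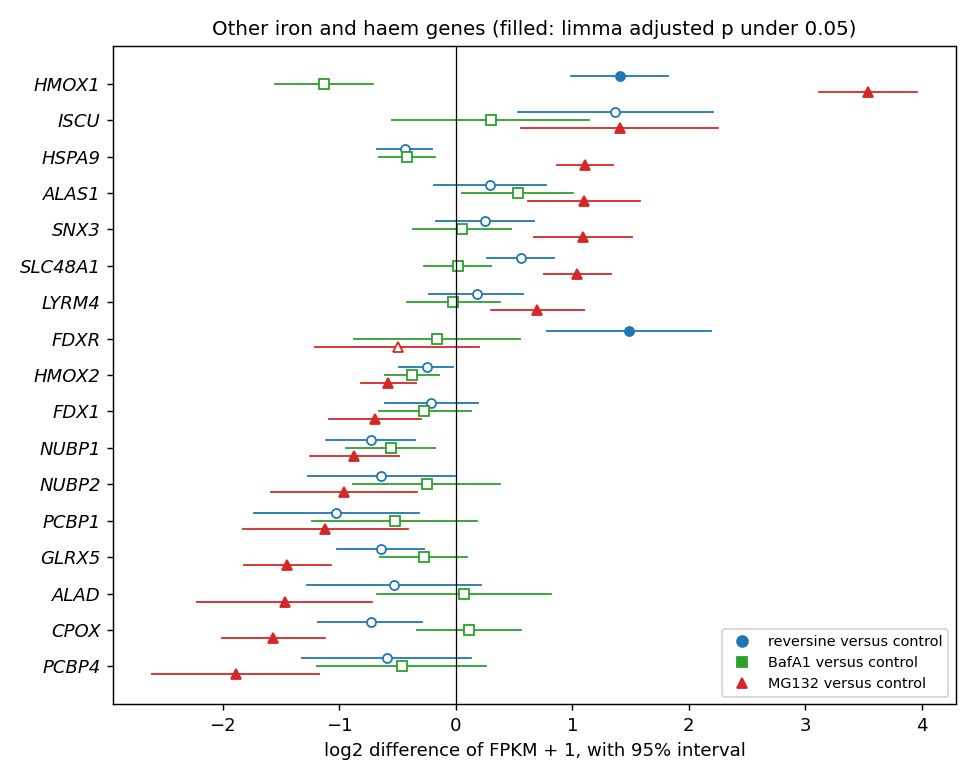
Log2 differences of FPKM + 1 from control with 95% intervals for 17 of the 19 other iron and haem genes called in at least 1 comparison; filled symbols passed limma's adjusted p under 0.05. HMOX1 lies at 3.54 after MG132, 1.41 after reversine and -1.13 after BafA1, the last not filled.

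The genes whose levels followed those of the ferritins and the receptor most closely were sought among 14918 rows with a mean of at least 10 FPKM, as a description over 12 libraries that share the 4 groups. For FTL they were GLA, GHITM and OSER1, with Pearson r of log2 levels of 0.993, 0.993 and 0.992. GLA, a lysosomal galactosidase, averaged 16.3 FPKM in control and 129 FPKM after MG132. For FTH1 they included CHPF2 (0.972) and CLCF1 (0.971). For TFRC they were FBN2 (0.969), SOX13 (0.968) and NCKIPSD (0.964), which averaged 61.6 FPKM in control and 14.6 FPKM after MG132.

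The promoters of FTL, which rose, and TFRC, which fell, are shown because the 2 messages moved apart after MG132. They are the 250 bases before the RefSeq gene start (GRCh38.p14), and 8 of the 9 symbols had an entry, FTH1 being without one. Capitals mark the hypoxia response element core, ACGTG or GCGTG on either strand:
FTL, chr19:48965059-48965308, plus strand: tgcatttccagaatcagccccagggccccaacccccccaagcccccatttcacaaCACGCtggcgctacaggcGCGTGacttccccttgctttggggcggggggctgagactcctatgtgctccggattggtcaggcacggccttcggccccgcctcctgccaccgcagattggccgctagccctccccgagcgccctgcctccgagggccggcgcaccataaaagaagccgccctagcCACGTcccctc
TFRC, chr3:196082091-196082340, minus strand: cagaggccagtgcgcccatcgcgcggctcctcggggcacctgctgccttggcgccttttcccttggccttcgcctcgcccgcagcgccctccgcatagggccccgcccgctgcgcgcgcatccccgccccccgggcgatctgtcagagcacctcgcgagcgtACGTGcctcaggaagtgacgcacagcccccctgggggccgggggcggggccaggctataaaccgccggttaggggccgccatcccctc
FTL held 3 matches and TFRC 1, and 43.2% of 35116 promoters of this length held at least 1. Neither held the antioxidant response element core TGANNNNGC (in 35.2% of promoters) or the E-box CACGTG of the MiT/TFE factors (6.34%), which contains ACGTG. These are matches of letters in a short window only.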

How the data were processed

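RNA was selected with oligo(dT) and sequenced as 50 nt reads, per the labels' protocols. The submitters' processing notes list RSEM 1.2.6, Bowtie 1.0.0 and the build hg19 (GRCh37). The authors' deposited table names no unit, and its values were read as FPKM made with RSEM, since library totals differ (962891 to 2057717). It holds no read counts, and counting error cannot be given. Samples were grouped by the labelled treatment, and replicate numbers follow record order.

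The limma trend method (limma 3.58.1, R 4.3.3) was fitted to log2(FPKM + 1) for rows of at least 1 FPKM in 3 libraries, 4 groups in 1 fit, 6 comparisons, Benjamini-Hochberg over 30712 rows, threshold 0.05. Residual degrees of freedom were 8 and prior 1.26. Adding 1 understates changes of low genes. The fit was tested on simulated data.

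The members and lists were chosen with earlier results of these data known. Named genes are the 9 members, list genes called against control (at most 20; 19 qualified) and the 3 most similar rows for FTL, FTH1 and TFRC. A few of these are not reported here. NCOA4 was named after its values were seen, and UROS, UROD and PPOX were also named outside the selection above. GC content and length came from GENCODE v29, for 82.5% of tested rows. Alternatives are in the closing section.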

Additional observations from a re-analysis of the deposited data

How the results depend on the processing

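Over the alternatives, 1816 gene values were recomputed: 1614 stayed on their side of the threshold, 130 lost the call, 72 gained one and 0 called values reversed. Among the 1614, 65 changed sign while called under neither setting.

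Of the 9 iron genes, the count called after MG132 was 5. It was 2 when only the 2 groups were fitted, 3 without the 4 falling-GC libraries as defined over transcripts longer than 500 nt, 2 under the GC definition listed at the outset (1 control against 2 MG132 libraries, the lone control assumed to vary like the others), and 3 (without control 1 or control 2) to 7 (without MG132 1) leaving out 1 library. The 500 nt versions were chosen after seeing the data. After reversine, 0 became 1 without the falling-GC libraries and 4 with array weights. Against BafA1, reversine went from 0 to 1 under TMM scaling, 1 under the GC and length correction over transcripts longer than 500 nt and 3 with array weights. Against MG132, reversine went from 3 to 0 with 2 groups only, 6 under that correction, 5 with array weights and 2 to 5 leaving out 1 library (5 without MG132 1); BafA1 went from 5 to 3 with 2 groups only and 3 without the falling-GC libraries. The array weights did not converge fully, so their counts are of limited use. FBXL5 passed as lower after MG132 under the correction over transcripts longer than 500 nt alone (-0.69, adjusted p = 0.00101).

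Counts over all rows moved more. After MG132, 4549 rows became 2435 (without control 1) to 15428 (array weights), with 13046 without MG132 1, 2519 without MG132 2, 2538 without MG132 3, 2935 without control 2 and 2628 without control 3. After reversine, 642 became 11 (2 groups only) to 3306 (array weights), and after BafA1, 81 became 19 to 1518. Reversine against BafA1 went from 377 to 2 and 2903, reversine against MG132 from 2000 to 256 and 17101, BafA1 against MG132 from 3334 to 1413 and 18445, the last 2 highest counts without MG132 1. The cause was not tested.

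Splits of higher and lower rows depended on scaling. After MG132 they were 2192 and 2357, 1099 and 2951 under median-ratio scaling, and 1340 and 2818 under TMM. After BafA1, 62 and 19 became 49 and 93 under TMM. Reversine against BafA1 went from 136 and 241 to 114 and 109 (median-ratio) and 209 and 148 (TMM). Reversine against MG132 went from 1082 and 918 to 1529 and 419, and 1583 and 536. BafA1 against MG132 went from 1955 and 1379 to 2147 and 863 under median-ratio scaling. The all-row median moved by over 0.1 under TMM for BafA1 against control (-0.13) and reversine against BafA1 (0.13), and under median-ratio scaling for reversine (0.24) and BafA1 (0.14) against MG132. The directions of the called iron genes did not flip under either scaling.

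No paired analysis was possible because the labels carry no replicate numbers. Without read counts, depth limits SLC40A1 and other low genes by an unknown amount.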
